A study of Homo sapiens with 54 samples.

Results

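Heterogeneous nuclear ribonucleoproteins (hnRNPs) are abundant RNA-binding proteins that coat newly made transcripts in the nucleus. The 10 hnRNP genes described here, HNRNPM, HNRNPA1, HNRNPA2B1, HNRNPC, HNRNPD, HNRNPDL, HNRNPK, HNRNPU, HNRNPH1 and HNRNPL, were chosen by name. All 10 were present among the 38137 genes of the deposited table, and all 10 were among the 15378 genes that passed the filter on low counts. Their expression was followed in HEK293T, a line derived from human embryonic kidney, in cells that received a Cas13 RNA-targeting effector with one of several guides, an antisense oligonucleotide, or nothing.

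By binding short sequence elements, hnRNPs help to decide which exons are joined, where a transcript ends, whether it leaves the nucleus and how long it lasts. HNRNPA1 and HNRNPA2B1 are related proteins of the A/B type that often repress exon inclusion. HNRNPC stays in the nucleus and binds runs of U, HNRNPL binds CA repeats, HNRNPK binds C-rich stretches, and HNRNPH1 binds runs of G, whereas HNRNPM favours GU-rich sites and regulates alternative splicing. HNRNPD, also called AUF1, binds AU-rich elements and controls mRNA decay, HNRNPDL is its close relative, and HNRNPU is a large nuclear protein that attaches RNA to chromatin. Several hnRNPs also regulate the splicing of their own transcripts.

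The libraries came from 18 groups of 3 independent cultures. Cells carried plasmids for RfxCas13d (WT) or its high-fidelity forms RfxCas13d-N2V7 (N2V7) and RfxCas13d-N2V8 (N2V8), which have substitutions in a nuclease domain. With each effector came a guide: a crRNA without a target (NTG), crRNA-13 (S13), directed at exon 1a of C9ORF72, or S3, S4 or S7. The labels give no target for these 3 further crRNAs. The paper's numbered candidate crRNAs all lay in exon 1a or intron 1 of C9ORF72. By number, S3, S4 and S7 would be among them. The remaining groups were untransfected (UT) or had received 1 of the antisense oligonucleotides ASO2 and ASO4, against intron 1 and exon 2 of C9ORF72. The effector was driven by the CAG promoter and carried nuclear localization signals, and delivery was by transient transfection, so a culture held cells with and without plasmid. The sample labels place harvest at 48 h after transfection. A later time is given where the study reports its RNA-seq results.

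Library totals ran from 9546826 to 15099153 estimated counts, and the 10 genes together took 0.729% to 1.19% of a library. The lowest count of any of the 10 genes in any library was 1748, a count at which counting error alone gives a coefficient of variation of 2.39%. The spread between the 3 libraries was at or below the counting error in 12 of the 180 combinations of gene and group. All 7 HEK293T markers examined were detected in every library, from PAX2 at 2.16 library-scaled counts (CPM) or more to VIM at 794 CPM or more. Of the markers of the neuroblastoma line SH-SY5Y, TH and DBH never exceeded 3 counts and HAND2 was at 2.66 to 8.05 CPM. Library 2 of N2V7_S4 stood apart, with a residual SD of 0.523 against 0.307 and 0.383 in libraries 1 and 3 of its group and at most 0.269 in all libraries of the other 17 groups, and results that rest on it are given with and without it. C9orf72 itself was called lower with ASO4 (log2 fold change −1.40 ± 0.10 SE against UT, adjusted p = 2.17e-16, edgeR quasi-likelihood test) and was not called in the S13 comparisons against NTG, where its log2 differences were −0.15, 0.07 and −0.06 for WT, N2V7 and N2V8.

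Levels between genes can be compared only per length, and for this the mean CPM in UT was divided by the length of the principal GENCODE transcript of each gene. The deposited estimates rest on NCBI transcripts, so dividing by 1 GENCODE length is approximate. The SDs cover only the spread between libraries. On this scale HNRNPA1 was highest at 900.6 ± 34.4 CPM per kb (SD, n = 3). HNRNPC (296.7 ± 26.3), HNRNPK (279.1 ± 14) and HNRNPA2B1 (235.1 ± 4.42 CPM per kb) followed, and the first pair did not differ beyond their spread. HNRNPH1 stood at 206.2 ± 8.16 and HNRNPL at 143.2 ± 12.5 CPM per kb. HNRNPD (96.09 ± 1.01) and HNRNPU (90.84 ± 2.68 CPM per kb) lay close together, and HNRNPM (76.62 ± 5.01) and HNRNPDL (56.75 ± 1.17 CPM per kb) were lowest. By mean CPM, a ranking that does not correct for length, each of the 10 genes lay above the 95th percentile of all tested genes, from 95.2 for HNRNPM to 99.9 for HNRNPA1.

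The transcripts differed in build. HNRNPM and HNRNPL had the shortest non-coding stretches (287 and 375 bases) and the highest GC content (53.1% and 54.3%), whereas the other 8 transcripts carried 893 to 4392 non-coding bases at 38.4% to 46.0% GC. In the RefSeq annotation of GRCh38.p14, HNRNPM lies at chr19:8444975-8489114 and HNRNPL at chr19:38836370-38852347. HNRNPD (chr4:82352498-82373991) and HNRNPDL (chr4:82422564-82430462) are neighbours on chromosome 4. HNRNPA2B1 lies at chr7:26189927-26200746, HNRNPK at chr9:83968083-83980615, HNRNPC at chr14:21209147-21269442, HNRNPA1 at chr12:54280726-54287087, HNRNPU at chr1:244850297-244864543 and HNRNPH1 at chr5:179614178-179634784. The related loci HNRNPA1L2 (7.95 to 18.9 CPM) and HNRNPA1P10 (0.904 to 4.32 CPM) are near-copies of HNRNPA1, and because multi-mapped reads were kept and divided by Salmon, a small part of the HNRNPA1 estimate could belong to them.

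Stretches upstream of a transcription start are shown for the 6 members that were called higher with N2V8 and NTG than with WT and NTG, since they are the largest set of members called in a comparison of effectors with the same guide. The sequences come from the RefSeq promoter table of GRCh38.p14, in which 9 members matched (all except HNRNPA1), and are written 5′ to 3′ on the strand of the gene with motif matches in capitals. The start used in that table lies inside the annotated span of HNRNPL, HNRNPK and HNRNPH1, so for these genes it belongs to a transcript that begins downstream of the outermost start. Bases in any GENCODE release 44 exon were left out, except that for HNRNPM and HNRNPA2B1, whose whole 250-base window is covered by other annotated exons, 30 bases around a match are given.
HNRNPM, chr19:8444921-8444950, plus strand: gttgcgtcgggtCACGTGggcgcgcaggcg
HNRNPA2B1, chr7:26200831-26200860, minus strand: gagccttcccgccATTGGcggcggataggg
HNRNPL, chr19:38849987-38850146, minus strand: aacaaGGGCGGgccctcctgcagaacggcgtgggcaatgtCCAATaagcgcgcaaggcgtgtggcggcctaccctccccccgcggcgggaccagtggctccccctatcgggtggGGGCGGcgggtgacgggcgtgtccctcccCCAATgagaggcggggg
HNRNPK, chr9:83980283-83980442, minus strand: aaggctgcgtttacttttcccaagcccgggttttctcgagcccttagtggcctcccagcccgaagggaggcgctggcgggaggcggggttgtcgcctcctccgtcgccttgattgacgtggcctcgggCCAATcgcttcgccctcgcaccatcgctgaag
HNRNPD, chr4:82374000-82374118, minus strand: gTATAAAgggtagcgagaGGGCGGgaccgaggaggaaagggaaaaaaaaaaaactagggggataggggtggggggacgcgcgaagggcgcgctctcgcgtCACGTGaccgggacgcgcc
HNRNPC, chr14:21269495-21269654, minus strand: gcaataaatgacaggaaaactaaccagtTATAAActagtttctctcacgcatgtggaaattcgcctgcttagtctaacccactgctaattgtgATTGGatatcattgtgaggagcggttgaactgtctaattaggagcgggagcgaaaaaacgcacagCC
The capitals mark the CCAAT box, the GC box GGGCGG, the TATA-type element TATAAA, the ETS core CCGGAAG, the E box CACGTG or the reverse complement of each. The capitals at the end of the HNRNPC stretch are the start of a match that the next exon interrupts.

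Over the full 250 bases before the start, a CCAAT box occurred in 6 of the 9 matched members, against 32% of 35114 promoters of the same length. A GC box occurred in 5 of 9 against 42.6%, an E box in 3 of 9 (HNRNPM, HNRNPD and HNRNPDL) against 6.35%, a TATA box in 2 of 9 against 10.7%, and an ETS core in 1 of 9 against 8.52%. The NRF1 core GCATGCGC was searched as well and matched none of the 9, against 2.63% of all promoters. Both strands were searched, the motifs do not contain one another, and a match describes letters and not a bound factor. No motif was shared by all 6 members shown, and HNRNPH1 held none of the 6 motifs.

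The comparison of NTG with UT asks how cells given an effector and a guide without a human target differed from untreated cells. UT cells were untransfected, so effects of the effector and guide cannot be told apart here from those of transfection itself. With the WT effector no member was called (a gene is called when its log2 fold change lies beyond 0.32 either way, the fold minimum, and its adjusted p under 0.05), against 5.09% of all genes called either way. Here 3 members had an unadjusted p under 0.05 by edgeR, and limma-trend and DESeq2 also called 0. With N2V7, HNRNPM, HNRNPA2B1 and HNRNPL were called higher, 3 of 10 members against 10.9% of all genes. With N2V8, 7 of 10 were called higher against 15.3% of all genes: HNRNPM, HNRNPA2B1, HNRNPL, HNRNPC, HNRNPD, HNRNPDL and HNRNPK. No member was called lower in any of the 3 comparisons. The median log2 difference of the members was 0.00, 0.22 and 0.36 for WT, N2V7 and N2V8, with the median of all genes at 0.00 each time.

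HNRNPM, the GU-binding splicing regulator, was at 175.6, 198.1 and 195.7 CPM in the 3 UT libraries and at 207.2, 202.6 and 200.7 CPM in WT_NTG. It reached 290.8, 307.1 and 279.6 CPM in N2V7_NTG and 252.9, 271.4 and 261.2 CPM in N2V8_NTG. All 6 libraries of the high-fidelity effectors lay above all 6 of UT and WT_NTG. Against UT the log2 fold change was 0.62 ± 0.05 SE with N2V7 (1.54-fold, adjusted p = 3.08e-15) and 0.47 ± 0.05 with N2V8 (1.38-fold, adjusted p = 5.8e-11), and with WT it was 0.10 ± 0.05 and not called (adjusted p = 0.129).

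HNRNPA2B1, which acts in splicing and in the transport of RNA, was at 858.8, 834.6 and 865 CPM in UT and at 922.8, 920.1 and 874.1 CPM in WT_NTG. In N2V7_NTG it was at 1243, 1304 and 1187 CPM, and in N2V8_NTG at 1284, 1407 and 1300 CPM. Again the high-fidelity libraries did not overlap the others. The log2 fold changes against UT were 0.54 ± 0.06 SE with N2V7 (adjusted p = 1.04e-10) and 0.64 ± 0.06 with N2V8 (adjusted p = 6.43e-13).

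HNRNPL, the CA-repeat binder, followed the same order at a lower level. The UT libraries held 337.8, 289.8 and 292.8 CPM and the WT_NTG libraries 333.7, 335.5 and 308.3 CPM. N2V7_NTG held 396.8, 428.5 and 407.3 CPM, and N2V8_NTG held the highest values, 462.3, 512 and 465.2 CPM. The change against UT was 0.42 ± 0.06 SE on the log2 scale with N2V7 (adjusted p = 1.48e-08) and 0.65 ± 0.06 with N2V8 (adjusted p = 4.17e-14).

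Of the 3 NTG groups, N2V8_NTG was the one in which HNRNPC, HNRNPD, HNRNPDL and HNRNPK were called. The C-rich binder HNRNPK was at 962, 1061 and 1036 CPM in N2V8_NTG against 852.9, 786.6 and 779.7 CPM in UT, and it was lowest in WT_NTG at 735.1, 725 and 695.1 CPM. The U-run binder HNRNPC held 1159, 1267 and 1258 CPM in N2V8_NTG against 1035, 882.7 and 899.7 CPM in UT, without overlap. Their log2 fold changes against UT with N2V8 were 0.34 ± 0.05 SE for HNRNPK and 0.39 ± 0.05 for HNRNPC, and those of HNRNPD and HNRNPDL were 0.40 ± 0.06 and 0.33 ± 0.05. The HNRNPK call was lost without UT library 2 (0.32), UT library 3 (0.32) or N2V8_NTG library 2 (0.31), and that of HNRNPDL without UT library 1 or N2V8_NTG library 2 (0.32 each), values just short of the fold minimum. That of HNRNPDL was also lost in a fit without the factor of unwanted variation (0.33). With N2V7 the same 4 genes had log2 differences of 0.17 (HNRNPC), 0.31 (HNRNPD), 0.19 (HNRNPDL) and 0.16 (HNRNPK).

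The other 3 members did not pass. HNRNPA1, the most abundant of the 10, was at 3503, 3246 and 3367 CPM in UT and at 2892, 2950 and 2833 CPM in N2V7_NTG, a log2 difference of −0.22 ± 0.05 SE that was under the fold minimum (adjusted p = 0.000219). The G-run binder HNRNPH1 was at 441, 469.1 and 475.3 CPM in UT, 491.1, 482.9 and 428.8 CPM in N2V7_NTG and 433.4, 442.4 and 449.5 CPM in N2V8_NTG, with overlapping ranges. HNRNPU, the chromatin-attached member, differed from UT by 0.24 ± 0.06 SE (log2) with N2V7 and by 0.20 ± 0.06 with N2V8.

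**Figure D1:**
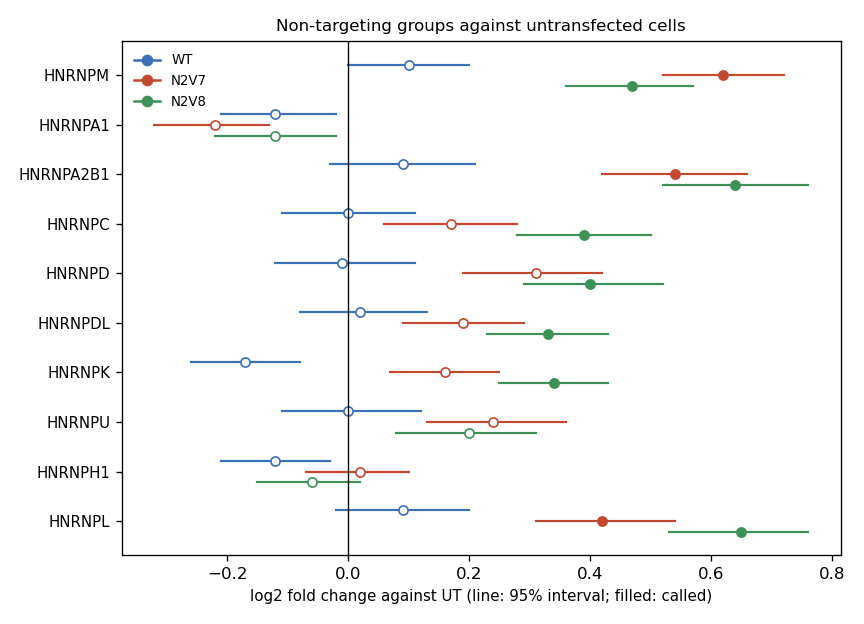
Log2 fold change of each of the 10 genes in the NTG group of the WT (blue), N2V7 (red) and N2V8 (green) effector against UT, from the fit to 54 libraries with 3 per group. Lines are 95% intervals and filled points are called: none for WT, 3 for N2V7 and 7 for N2V8, all to the right of 0.

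The effectors were also set against each other with the same NTG crRNA, using the same NTG libraries as above. N2V7 against WT called 4 of 10 members higher (HNRNPM 0.52 ± 0.05, HNRNPA2B1 0.46 ± 0.06, HNRNPK 0.33 ± 0.05 and HNRNPL 0.33 ± 0.06 on the log2 scale, SE), against 5.51% of all genes. N2V8 against WT called 6 of 10 higher against 12.0% of all genes. These were HNRNPL (0.56 ± 0.06), HNRNPA2B1 (0.56 ± 0.06), HNRNPK (0.50 ± 0.05), HNRNPD (0.41 ± 0.06), HNRNPC (0.39 ± 0.05) and HNRNPM (0.36 ± 0.05 log2). N2V8 against N2V7 called 0 of 10 by edgeR, limma-trend and DESeq2 alike, against 6.36% of all genes called either way, while 6 members had an unadjusted p under 0.05. In N2V7 against WT, HNRNPK (0.31) and HNRNPL (0.30) were no longer called without WT_NTG library 3 or without N2V7_NTG library 2. The HNRNPK call was also lost without the low-count filter (0.32).

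The comparison of S13 with NTG within an effector asks what crRNA-13 added, and its controls are the NTG libraries described above. The members lay mostly above their control with WT and mostly below it with N2V8. With WT, 1 of 10 was called higher, HNRNPA2B1, against 6.53% of all genes. With N2V7, HNRNPM and HNRNPU were called lower, 2 of 10 against 7.78% of all genes, and with N2V8 only HNRNPM was called lower, 1 of 10 against 0.715%. The median log2 difference of the members was 0.23 with WT, −0.09 with N2V7 and −0.20 with N2V8. Of the 10 members, 8 were above 0 with WT, 4 with N2V7 and 0 with N2V8.

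HNRNPM stood at 206.6, 209.5 and 211.3 CPM in WT_S13, beside the 200.7 to 207.2 CPM of WT_NTG. It was at 193.7, 179.9 and 183.5 CPM in N2V7_S13 and at 211.8, 201.7 and 193.1 CPM in N2V8_S13. Each of these 6 high-fidelity libraries lay below every library of the matching NTG group. The log2 fold change was −0.65 ± 0.05 SE with N2V7 (1.57-fold lower, adjusted p = 8.02e-15) and −0.37 ± 0.05 with N2V8 (1.3-fold lower, adjusted p = 1.51e-07). With WT the difference was 0.04 ± 0.05 (95% interval −0.06 to 0.14).

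HNRNPA2B1 rose with WT from 922.8, 920.1 and 874.1 CPM in WT_NTG to 1234, 1296 and 1249 CPM in WT_S13, a log2 fold change of 0.48 ± 0.06 SE (1.39-fold, adjusted p = 3.31e-08). The WT_S13 level lay in the range of the high-fidelity NTG groups. In N2V7_S13 it was at 1203, 1122 and 1177 CPM and in N2V8_S13 at 1133, 1123 and 1018 CPM, log2 differences of −0.09 ± 0.06 and −0.29 ± 0.06 from the matching NTG that were not called. HNRNPL, HNRNPD, HNRNPC, HNRNPDL and HNRNPK had WT differences of 0.32, 0.26, 0.25, 0.23 and 0.23, each with an adjusted p under the threshold and a fold short of the minimum.

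HNRNPU was at 713, 765.6 and 736.2 CPM in N2V7_NTG and at 612.4, 575.8 and 583 CPM in N2V7_S13, without overlap. Its log2 fold change was −0.32 ± 0.06 SE (adjusted p = 2.87e-05), at the edge of the fold minimum. The call was lost under DESeq2, under its size factors and without the low-count filter (−0.32 each), and also without N2V7_NTG library 2 (−0.30), N2V7_S13 library 2 (−0.30) or N2V7_S13 library 3 (−0.31). HNRNPH1 lay just outside, at −0.31 ± 0.04 (adjusted p = 4.63e-07), with 391.6, 359.5 and 378.9 CPM in N2V7_S13 against 491.1, 482.9 and 428.8 CPM in N2V7_NTG.

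The share of counts from ribosomal RNA genes moved with these groups. It was 4.17% to 4.42% in N2V7_S13 and 3.98% to 4.96% in N2V8_S13, against 1.76% to 3.07% in N2V7_NTG and 1.81% to 3.52% in N2V8_NTG, whereas WT_S13 (1.79% to 2.30%) lay within the range of WT_NTG (1.71% to 3.15%). Its part in the differences above was not tested.

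**Figure D2:**
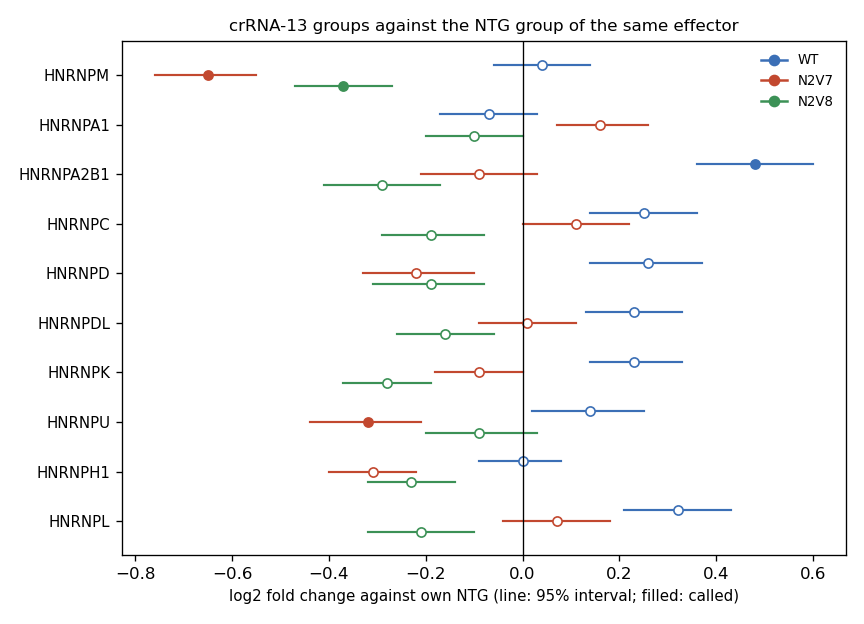
Log2 fold change of each of the 10 genes in the S13 group against the NTG group of the same effector, for WT (blue), N2V7 (red) and N2V8 (green), with 3 libraries per group. Lines are 95% intervals and filled points are called: HNRNPA2B1 to the right for WT, HNRNPM and HNRNPU to the left for N2V7, and HNRNPM to the left for N2V8.

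The difference between effectors in the S13 effect was tested directly as an interaction. N2V7 minus WT was called for 5 of 10 members, all lower, against 8.63% of all genes, and N2V8 minus WT for 7 of 10, all lower, against 9.72%. For HNRNPM the difference was −0.69 ± 0.07 SE on the log2 scale for N2V7 minus WT (adjusted p = 1.9e-10) and −0.41 ± 0.07 for N2V8 minus WT (adjusted p = 1.73e-05). The largest member difference was that of HNRNPA2B1 for N2V8 minus WT, −0.76 ± 0.08 (adjusted p = 1.56e-09). N2V8 minus N2V7 called 0 of 10 members by edgeR, limma-trend and DESeq2, against 14.2% of all genes called either way, with 8 members at an unadjusted p under 0.05. Since these differences use the NTG libraries of both effectors, the higher NTG level with N2V7 and N2V8 enters each of them.

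For that reason the S13 groups were also set against UT, a comparison added after the values had been seen. HNRNPA2B1 and HNRNPL were called higher in all 3 S13 groups, 2 of 10 members each time, against 12.2% of all genes for WT, 13.5% for N2V7 and 11.7% for N2V8. HNRNPA2B1 was higher by 0.56 ± 0.06, 0.45 ± 0.06 and 0.35 ± 0.06 (log2, SE) with WT, N2V7 and N2V8, and HNRNPL by 0.41 ± 0.06, 0.49 ± 0.06 and 0.44 ± 0.06. The HNRNPA2B1 call with N2V8 was lost without the factor of unwanted variation (0.36), and without UT library 1 the calls over the 3 comparisons numbered 10 in place of 6. With all libraries HNRNPM was not called in any of the 3 comparisons. Its differences from UT were 0.14 ± 0.05 with WT, −0.03 ± 0.05 with N2V7 and 0.09 ± 0.05 with N2V8. The 95% intervals were 0.04 to 0.24, −0.13 to 0.07 and −0.01 to 0.19. With WT all HNRNPM libraries lay above UT and the adjusted p was 0.0225 by edgeR, so only the fold minimum was missed. The N2V7_S13 and N2V8_S13 libraries overlapped UT for HNRNPM but lay above UT for HNRNPA2B1 and HNRNPL. HNRNPH1 differed from UT by −0.29 ± 0.04 with each high-fidelity effector and by −0.13 ± 0.04 with WT, none of them called. These comparisons share the UT libraries with those of NTG against UT, and transfection itself enters them too.

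The additional crRNAs were compared with the NTG group of the same effector in the same way, and they share its libraries. With WT, S3 and S4 called 0 of 10 members by edgeR, limma-trend and DESeq2, against 2.74% and 2.67% of all genes called either way, and 4 and 1 members had an unadjusted p under 0.05. WT_S7 called 4 of 10 higher against 9.36% of all genes: HNRNPA2B1 (0.37 ± 0.06), HNRNPL (0.37 ± 0.06), HNRNPC (0.36 ± 0.05) and HNRNPK (0.34 ± 0.05 log2, SE). HNRNPK was at 919.8, 954 and 864.2 CPM in WT_S7, above the 695.1 to 735.1 CPM of WT_NTG. Without WT_S7 library 2 the calls of HNRNPC (0.30) and HNRNPK (0.31) were lost, and that of HNRNPK also without WT_NTG library 3 (0.32). The HNRNPA2B1 call was lost without the factor of unwanted variation (0.37), and that of HNRNPK under library totals in place of TMM (0.31).

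With the high-fidelity effectors HNRNPM was again the member that passed most often. It was called lower with N2V7_S3 (−0.45 ± 0.05), N2V7_S7 (−0.69 ± 0.05), N2V8_S3 (−0.47 ± 0.05), N2V8_S4 (−0.40 ± 0.05) and N2V8_S7 (−0.39 ± 0.05 log2, SE). In N2V7_S7 it was at 190.8, 183.2 and 168.9 CPM. Its group means were 213.6 CPM in N2V7_S3, 181 CPM in N2V7_S7, and 189.1, 198.6 and 200.4 CPM in N2V8_S3, N2V8_S4 and N2V8_S7. Beside these stood 189.8 CPM in UT, 292.5 CPM in N2V7_NTG and 261.8 CPM in N2V8_NTG. The S3, S4 and S7 groups were not tested against UT. N2V7_S3 and N2V8_S3 called no other member, 1 of 10 against 1.02% and 0.917% of all genes called lower, and N2V8_S4 called 1 of 10 against 3.21%. N2V7_S7 called 3 of 10 lower against 8.91%, adding HNRNPU (−0.40 ± 0.06) and HNRNPH1 (−0.33 ± 0.04), and N2V8_S7 called 3 of 10 against 3.47%, adding HNRNPK (−0.40 ± 0.05) and HNRNPA2B1 (−0.38 ± 0.06). The HNRNPH1 call was lost without N2V7_NTG library 1 (−0.29), N2V7_NTG library 2 (−0.30) or N2V7_S7 library 2 (−0.31), and the HNRNPA2B1 call without N2V8_S7 library 3 (−0.31). Both calls were also lost without the factor of unwanted variation, at −0.33 for HNRNPH1 and −0.38 for HNRNPA2B1. The ribosomal RNA share was 3% to 4.86% in N2V7_S7, 2.22% to 3.58% in N2V8_S7 and 2.54% to 4.36% in N2V8_S3. In N2V7_S3 it was 2.07% to 2.3%, within the 1.76% to 3.07% of N2V7_NTG. In N2V8_S4 it was 2.34% to 3.28%, within the 1.81% to 3.52% of N2V8_NTG. The part of this share in the differences was not tested.

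In N2V7_S4 the calls rested on 1 library. HNRNPDL (0.43 ± 0.05), HNRNPA2B1 (0.36 ± 0.06) and HNRNPC (0.35 ± 0.05 log2, SE) were called higher, 3 of 10 against 9.66% of all genes. HNRNPA2B1, however, was at 1220 and 1240 CPM in libraries 1 and 3 and at 2689 CPM in library 2. HNRNPH1 was likewise at 439.9 and 394.4 CPM in libraries 1 and 3 and at 1048 CPM in library 2, and HNRNPM at 213.6 and 213.2 CPM against 406.5 CPM. HNRNPL went the other way, with 370.7 and 418.6 CPM against 245.3 CPM in library 2. Without library 2 the log2 differences were −0.02 for HNRNPA2B1, 0.22 for HNRNPC and 0.07 for HNRNPDL, none called, and that of HNRNPM was −0.46 and called lower. The estimated factor of unwanted variation in the fit had 95.6% of its weight on the N2V7_S4 libraries.

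**Figure D3:**
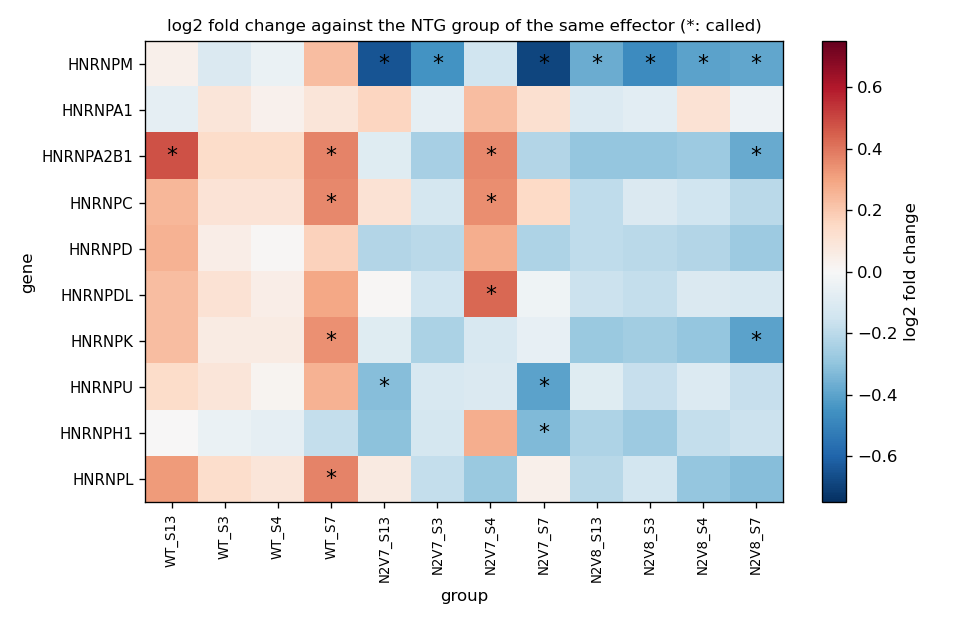
Log2 fold change of the 10 genes (rows) in each crRNA group (columns) against the NTG group of the same effector, from blue (lower) to red (higher), with an asterisk for a called value. HNRNPM is called lower in 7 of the 8 N2V7 and N2V8 columns and in none of the 4 WT columns, and the N2V7_S4 column rests on library 2.

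The oligonucleotides were compared with UT, which received neither oligonucleotide nor plasmid. ASO2 called 1 of 10 members lower, HNRNPH1, against 9.01% of all genes. HNRNPH1 was at 371.6, 367 and 364.3 CPM in ASO2, below the 441 to 475.3 CPM of UT, with a log2 fold change of −0.33 ± 0.04 SE (1.26-fold lower, adjusted p = 5.14e-08). The call was lost without UT library 2 (−0.32) or UT library 3 (−0.31) and in a fit without the factor of unwanted variation (−0.33). ASO4 called 0 of 10 by edgeR, limma-trend and DESeq2, against 2.13% of all genes called either way, with 2 members at an unadjusted p under 0.05 and log2 differences from −0.19 (HNRNPU) to 0.11 (HNRNPC).

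Across the 18 groups, HNRNPM had its highest mean in N2V7_NTG, 292.5 ± 13.8 CPM (SD, n = 3), and its lowest in ASO4, 174.9 ± 14 CPM. N2V8_NTG (261.8 ± 9.25 CPM) and WT_S7 (238.4 ± 4.38 CPM) came next when N2V7_S4, at 277.8 ± 112 CPM, is set aside. The lowest N2V7_NTG library (279.6 CPM) exceeded the highest of N2V8_NTG (271.4 CPM), whose lowest (252.9 CPM) exceeded the highest of WT_S7 (243.4 CPM). WT_S7 in turn, with 235.4 CPM as its lowest value, lay above N2V7_S3, which had 220.8 CPM as its highest. From N2V7_S3 (213.6 ± 9.69 CPM) down to ASO4 the ranges of neighbouring groups overlapped.

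**Figure D4:**
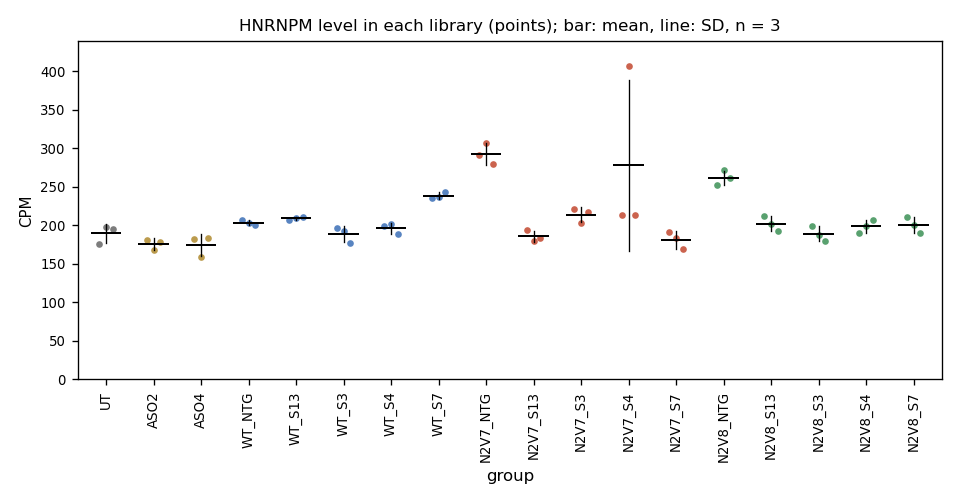
HNRNPM in CPM (vertical axis from 0) in each of the 54 libraries, by group, coloured by treatment (grey UT, ochre oligonucleotides, blue WT, red N2V7, green N2V8). Bars are group means and lines SDs of 3 libraries. N2V7_NTG and N2V8_NTG lie between 252.9 and 307.1, above their own crRNA groups apart from library 2 of N2V7_S4 at 406.5.

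The other members covered narrower or different ranges. HNRNPA1 had the smallest ratio of highest to lowest group mean, 1.23, from 2759 CPM in N2V7_S3 to 3393 CPM in N2V7_S4, and it was called in none of the comparisons. HNRNPU spanned 1.37-fold from 547.7 CPM in ASO4 to 751 CPM in WT_S7, HNRNPK 1.42-fold from 718.4 CPM in WT_NTG to 1020 CPM in N2V8_NTG, and HNRNPL 1.56-fold from 306.8 CPM in UT to 479.8 CPM in N2V8_NTG. For HNRNPA2B1, HNRNPC, HNRNPD, HNRNPDL and HNRNPH1 the highest mean was also in N2V7_S4. With library 2 set aside, that group stayed highest for HNRNPC (1231 CPM against 1228 CPM in N2V8_NTG) and was no longer highest for the other 4 genes or for HNRNPA1.

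**Figure D5:**
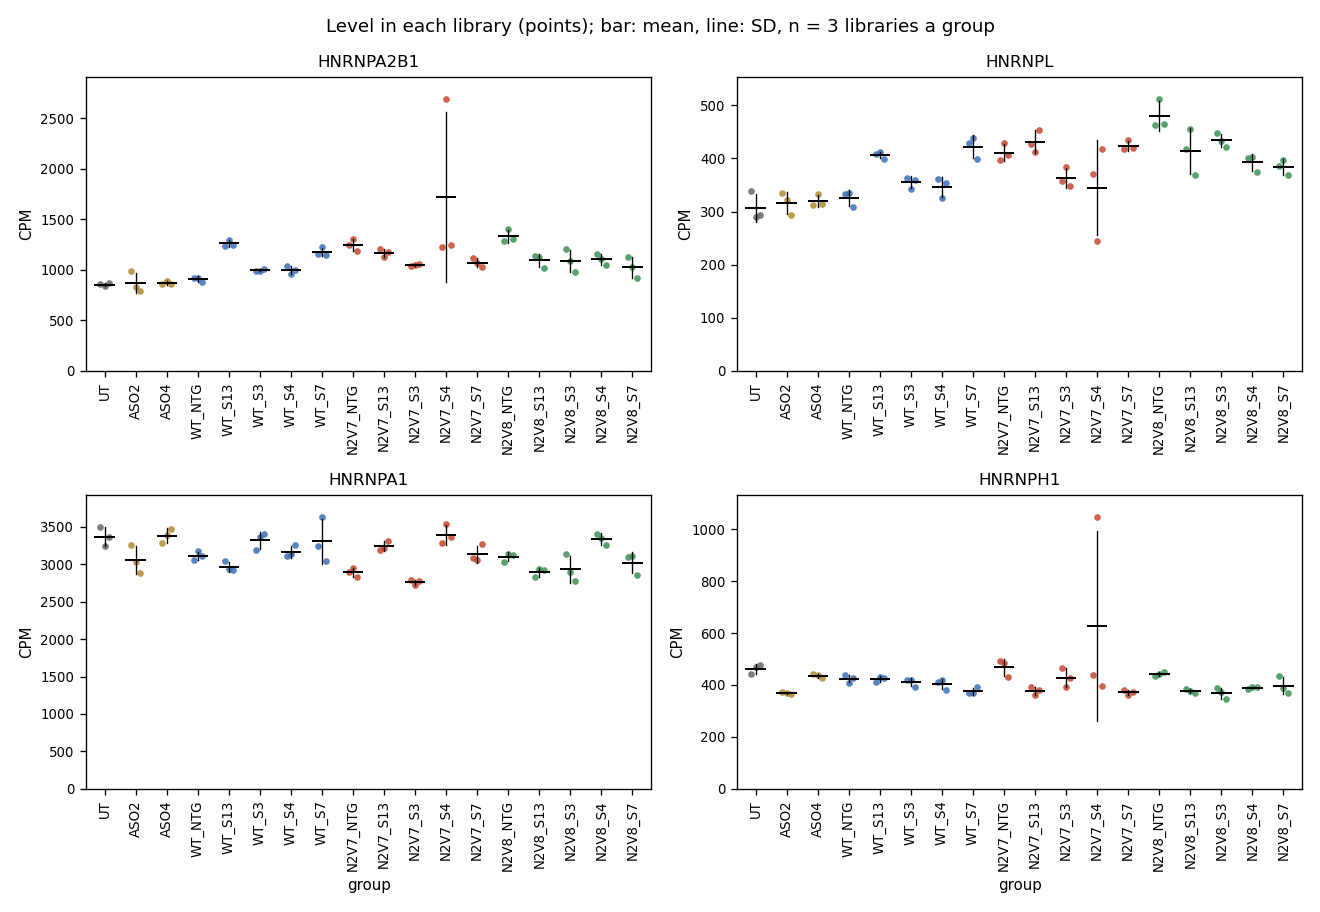
HNRNPA2B1, HNRNPL, HNRNPA1 and HNRNPH1 in CPM (vertical axes from 0) in each library, by group, with bars for means and lines for SDs of 3 libraries and the colours of the HNRNPM plot. HNRNPA2B1 and HNRNPL are lowest in UT (852.8 and 306.8 on average), whereas HNRNPA1 stays between 2720 and 3636 in all libraries.

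As a description over 18 group means on the log2 CPM scale, which share control groups and one normalization, the members most alike were HNRNPA2B1 and HNRNPD (Pearson r = 0.94, and 0.90 without N2V7_S4). HNRNPA2B1 and HNRNPL had r = 0.58, and 0.91 over the 17 groups without N2V7_S4. HNRNPM was most like HNRNPU among the members (0.82, and 0.84 without N2V7_S4) and was unlike HNRNPA1 (−0.16 and −0.35). Among the 8852 genes whose mean log2 CPM reached 4, the 5 nearest to HNRNPM, genes with only a locus symbol left out, were ITSN1 (0.93), an endocytic scaffold, EML4 (0.90), a microtubule-binding protein, DBN1 (0.90), an actin-binding protein, GLYR1 (0.89), a chromatin-associated protein, and PPP6R3 (0.88), a regulatory subunit of protein phosphatase 6.

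Other genes of the same machinery were read from lists of 20 further hnRNP-type genes, 16 nuclear partners and 8 genes for import and modification. In N2V8_NTG against UT, 8 of the 20 hnRNP-type genes were called higher and 1 lower, against 15.3% and 14.7% of all genes. PTBP2, a neuronal splicing repressor, was higher by 0.99 ± 0.10 (log2, SE), HNRNPR by 0.57 ± 0.05 and RBMX by 0.49 ± 0.04, whereas PCBP2, a poly(C)-binding protein, was at −0.36 ± 0.05. Of the partners, 4 of 16 were called higher, again against 15.3%, namely the RNA helicase DHX9 (1.27 ± 0.07), SFPQ (0.95 ± 0.09), YBX1 (0.61 ± 0.06) and MATR3 (0.56 ± 0.04). DHX9 was at 158.6 to 169.6 CPM in UT, 181.6 to 199.4 CPM in WT_NTG, 340.3 to 393 CPM in N2V7_NTG and 376.4 to 424.4 CPM in N2V8_NTG. Among the import and modification genes, the arginine methyltransferases PRMT5 (0.71 ± 0.06) and PRMT1 (0.46 ± 0.05) were called higher and the import receptor TNPO2 (−0.51 ± 0.06) lower.

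With N2V7 the same comparison called 4 of 20 hnRNP-type genes higher and 1 lower, 4 of 16 partners higher and 1 of 8 import and modification genes higher, against 10.9% of all genes higher and 9.95% lower. PTBP2 (0.86 ± 0.10) and HNRNPR (0.54 ± 0.05) were called higher and PCBP2 (−0.48 ± 0.05) was called lower. With WT, 2 of 20 hnRNP-type genes and 1 of 16 partners were called higher and 1 of 16 partners lower, against 2.71% and 2.38% of all genes.

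The same lists were read in the comparisons of S13 with the matching NTG group. WT_S13 against WT_NTG called 2 of 20 hnRNP-type genes and 2 of 16 partners higher and none lower, against 6.53% of all genes called higher, with DHX9 at 0.61 ± 0.07 and SFPQ at 0.41 ± 0.09 (log2, SE). N2V7_S13 called 3 of 20 and 4 of 16 lower and none higher, against 7.78% of all genes called lower, among them HNRNPUL2 (−0.48 ± 0.08), CELF1 (−0.47 ± 0.06) and the matrix protein SAFB (−0.57 ± 0.08). N2V8_S13 called 0 of 20 hnRNP-type genes, against 2.44% of all genes called either way. It called 2 of 16 partners, DHX9 (−0.46 ± 0.07) and DDX5 (−0.33 ± 0.09), both lower, against 0.715% of all genes. Of the 8 import and modification genes, WT_S13 called 1 lower, TNPO2 (−0.41 ± 0.06), against 4.24% of all genes. It called 1 higher, PRMT5 (0.35 ± 0.06), against 6.53%. N2V7_S13 called 1 of 8 lower, again TNPO2 (−0.37 ± 0.06), against 7.78%, and N2V8_S13 called 0 of 8.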

How the data were processed

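Gene expression was measured by poly(A) RNA-seq in 54 HEK293T libraries, grouped by their labels. The authors aligned reads to NCBI spliced transcripts with Salmon 1.5.2, with GRCh38 as decoy, and deposited length-scaled estimated counts per gene (tximport), with multi-mapped reads kept. A deposited column that marks genes as kept or not was not used. The estimated counts were rounded, 15378 of 38137 genes passed filterByExpr, and libraries were scaled by TMM. All libraries entered 1 quasi-likelihood fit (edgeR 4.0.16, R 4.3.3) with 1 factor of unwanted variation taken from residuals, as in the study's methods, where limma-trend was the test. A gene was called at a fold above 1.25 and a Benjamini-Hochberg adjusted p under 0.05 over all genes and the comparisons of a family; p-values are two-sided. CPM were computed from the TMM-scaled totals, except that those of the markers, HNRNPA1L2 and HNRNPA1P10 used library totals without TMM. On simulated data for WT_S13 against WT_NTG, 65.7% of 67 genes changed 1.3-fold, 91.0% of 67 changed 1.5-fold and 98.5% of 66 changed 2-fold were called in a fit of 15378 genes. The changed genes were drawn only from the more highly expressed ones, and the simulated counts held no outlying library. Alternatives were limma-trend (limma 3.58.1), DESeq2 1.42.0 and the settings named in the closing section; when a library was left out, the negative binomial dispersions of all libraries were kept. The members, gene lists and tests were chosen with earlier results of these data known. The rule named all 10 members, at most 4 called genes per other list and comparison, and the 5 genes most like HNRNPM; a gene that met the rule and a marker are not reported here.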

Additional observations from a re-analysis of the deposited data

Results flagged for a closer look

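The S13 effect on 12 member values differed between effectors by the interaction test itself, with 3 libraries in each of the 4 groups of a difference (log2 scale, adjusted p under 0.05 by edgeR). Each of the 3 differences tested 10 members, and over them 15.8% of all genes were called. N2V8 minus N2V7 called no member. The higher NTG level with N2V7 and N2V8 enters each difference from WT. For N2V7 minus WT the differences were −0.69 for HNRNPM, −0.57 for HNRNPA2B1, −0.47 for HNRNPD, −0.46 for HNRNPU and −0.33 for HNRNPK. For N2V8 minus WT they were −0.76 for HNRNPA2B1, −0.53 for HNRNPL, −0.52 for HNRNPK, −0.45 for HNRNPD, −0.44 for HNRNPC, −0.41 for HNRNPM and −0.39 for HNRNPDL. HNRNPM, HNRNPA2B1, HNRNPD and HNRNPK stand in both sets, which share the WT libraries. The HNRNPK difference for N2V7 minus WT was not called under DESeq2, its size factors, no low-count filter or only the compared libraries (−0.32, −0.32, −0.31 and −0.32), nor without WT_NTG library 3 (−0.30), N2V7_NTG library 2 (−0.30), WT_S13 library 1 (−0.32) or N2V7_S13 library 2 (−0.31). Without the factor of unwanted variation, HNRNPA2B1 and HNRNPD for N2V7 minus WT and HNRNPD, HNRNPM and HNRNPDL for N2V8 minus WT were not called, at log2 differences of −0.57, −0.47, −0.45, −0.41 and −0.39, the values they had with it.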

How the results depend on the processing

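Of the 59 called member values, all kept their call under limma-trend, the replicate block, a threshold of 0.01 and adjustment by single comparison. Libraries with 1 number in common were not paired in the fit (their residuals correlated at 0.00112 on average), and with the replicate block the members called were 1, 2 and 1 for S13 with WT, N2V7 and N2V8, 12 for the effector differences, 10 for NTG against UT, 6 for S13 against UT and 16 for the additional crRNAs, as without it. Under DESeq2 and its size factors 57 of 59 kept their call, under library totals and no low-count filter 56, with only the compared libraries 55 and without the factor 48. For 10 of the 11 calls lost without the factor the log2 fold change was the same to 2 decimals, so the adjusted p and not the fold moved them past the threshold. Without it the effector differences had 7 members called in place of 12 and the oligonucleotides 0 in place of 1. WT_S13 had 2 members called under library totals and with only the compared libraries, and N2V7_S13 had 1 under DESeq2, its size factors or no low-count filter. With no fold minimum the counts were 6, 5 and 8 of 10 members for S13 with WT, N2V7 and N2V8. The shares of all genes called were then 22%, 23.9% and 9.21%, the last in place of 2.44%. The other counts each pool several comparisons of 10 members, and the share of all genes called, pooled alike, follows in brackets. They were 24 for the effector differences (21.3%), 19 for NTG against UT (30.4%) and 22 for the effectors compared with NTG (26.4%). The additional crRNAs had 51 (17.3%), the oligonucleotides 4 (17.1%) and S13 against UT 21 (38.8%). Without library 2 of N2V7_S4 the HNRNPA2B1 difference in that group reversed to −0.02, the lowest of its values with 1 library left out, which reached 0.54. Leaving out each library in turn gave 1 to 2 members for WT_S13, 1 to 3 for N2V7_S13, 1 for N2V8_S13, 11 to 14 for the effector differences, 8 to 11 for NTG against UT, 8 to 11 for the effectors compared with NTG, 14 to 19 for the additional crRNAs, 0 to 1 for the oligonucleotides and 6 to 10 for S13 against UT (10 without UT library 1). For all these changes the cause was not tested. With 3 libraries per group, changes near the fold minimum are at the limit of what these libraries resolve.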
